A study of Mus musculus with 46 samples.

Results

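Reprogramming by Oct4 with the Nanog fusion was compared between day 10 (D10) and day 12 (D12). Of 16842 tested genes, 232 passed limma's test with a difference of at least 2-fold, and 210 of them were higher at D12. The comparison rests on 4 of the series' 46 samples, the 2 libraries of each day, chosen by the sample labels. In the cells, mouse embryonic fibroblasts (MEF) of OG2 mice, which carry a green fluorescent reporter of Oct4, had received retroviral Oct4 (Pou5f1) together with Nanog fused at its N terminus to the BRG1-interacting domain (BiD) of SS18, which belongs to the BAF complex that remodels chromatin. The labels call this combination NanogN70+Oct4, and it is written Nanog BiD below. Both days lay after the change, at about D7, from iCD3 medium to N2B27 with 2iL (the GSK3 inhibitor CHIR99021, the MEK inhibitor PD0325901 and LIF), so the 2 groups shared the factors, the medium and the starting cells and differed in time. The same 2 days with native Nanog and Oct4 (Nanog WT, 2 libraries a day) were set beside them. The 2 MEF libraries and the 1 library of mouse embryonic stem cells (mES) served as references.

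In this kind of culture fibroblasts first lose their own programme and a minority then turns on the pluripotency network. The inhibitors of 2iL hold cells that reach that network in the naive state, the state of the inner cell mass. Naive cultures are known to hold a small, fluctuating share of cells that switch on genes of the two-cell embryo, among them Zscan4, which encodes a zinc finger protein linked to telomere maintenance. Naive cells also have low DNA methylation, and genes of the germ line whose promoters are normally methylated in somatic cells can be transcribed there. The libraries are of whole cultures, so a change in the share of cells of a state and a change in RNA per cell cannot be told apart. Virus integrates at different sites in each cell. Pou5f1 and Nanog reads, and Ss18 reads of the BiD part, can come from the virus as well as from the cell's own genes.

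Values are FPKM, fragments scaled by gene model length and by the mapped total of the library, as the authors deposited them. Differences are D12 minus D10 in log2(FPKM + 1), which understates the change of low genes. A gene was called at an adjusted p under 0.05 in limma (Benjamini-Hochberg over all tested genes) with a difference of at least 1, that is 2-fold. The 31 time-course libraries of 16 groups shared 1 spread per gene. The 4 libraries held 13910 to 14431 genes at 1 FPKM or more, and low values put their relative depth between 0.885 and 1.00 of the D10 replicate 1 library. The Nanog WT libraries of the same days were deeper, at 1.68 to 3.47. Absolute depth is not known from FPKM. Replicates are separate samples in the labels, which do not say whether they came from separate cultures, so p-values measure the spread between these samples.

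The called genes made up 1.38% of those tested, with 1.25% called higher and 0.131% called lower. It was among the quieter intervals of the Nanog BiD course: 2651 genes (15.7%) were called from D7 to D10, 435 (2.58%) from D5 to D7, 226 (1.34%) from D3 to D5, 862 (5.12%) from D1 to D3 and 1491 (8.85%) from D0 to D1. The median difference of all tested genes was 0.02. With the 4 libraries of D10 and D12 fitted alone, limma called 0 genes, with 1654 at an unadjusted p under 0.05, against 2140 in the fit with all groups, so the calls rest on the spread estimated over the whole time course. Both D12 libraries lay above both D10 libraries in each of the 210 genes called higher and below them in each of the 22 called lower, an order that 21.9% and 18.1% of all tested genes also showed. With a pseudocount of 0.1 in place of 1, the count of calls was 129, and it shared 98 genes with the 232. A further limit concerns low genes: 58 of the 210 passed the filter on low values only through the D12 libraries, which chose them for being higher there. Of 381 genes that passed in that way, these 58 were 15.2%. Among the 16461 genes that passed without those libraries, 152 (0.923%) were called higher.

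**Figure D1:**
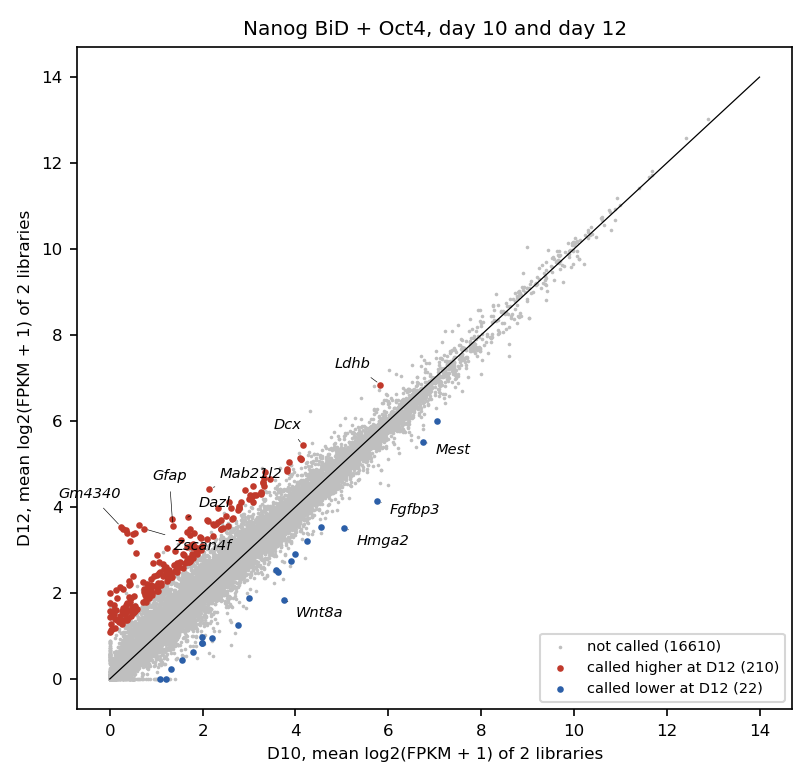
Mean log2(FPKM + 1) of the 2 Nanog BiD libraries at D10 (x axis) and D12 (y axis) for all tested genes. Grey points are genes not called, red points the 210 called higher and blue points the 22 called lower at D12. The line marks equal values, and most of the red points lie at low levels.

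The genes with the largest rise formed a tandem array of 7 protein-coding gene models on chromosome 10, mm10 (GRCm38.p6) positions 104142987 to 104196522, whose starts lie 8509 to 8510 bases apart. They were singled out after their values were seen, since unnamed models were left out of the rule for named genes. Gm4340 was at 0.161 and 0.215 FPKM at D10 and at 10.7 and 10.4 FPKM at D12. The difference was 3.29 (SE 0.26, adjusted p = 9.29e-08), and it lay between 2.86 and 3.29 in the 7 models. All 7 were listed at 0 at D7 and D8, and the D12 levels of 8.95 to 11.5 FPKM were above the 1.22 to 1.97 FPKM of mES. They had been above 0 earlier in the course, with Gm4340 at 0.636 and 0.731 FPKM at D0. The 250 bases before the start were identical or differed at 1 base in all pairs of the 6 models with a RefSeq promoter (Gm6763 had no entry). Reads cannot be assigned with certainty among copies this close, so the 7 values are not independent and may each hold reads of the others.

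Zscan4 transcripts followed the same course. These genes lie in a cluster on chromosome 7, and their copies also resemble each other closely enough to share reads. Zscan4f was at 0.442 and 0.926 FPKM at D10 and at 10.4 and 10.2 FPKM at D12, a difference of 2.76 (SE 0.15, adjusted p = 5.48e-10). Zscan4c was at 0.237 and 0.744 FPKM and then at 7.6 and 5.87 FPKM, a difference of 2.39 (adjusted p = 1.75e-09). In both, the 2 days did not overlap, and the D12 libraries were above the mES library, at 1.66 FPKM for Zscan4f and 1.03 FPKM for Zscan4c. Zscan4a rose by 1.86 and Zscan4b by 1.78, and Gm5662 on chromosome 12 rose by 1.78. These 5 genes passed the filter on low values only through the D12 libraries, so they were chosen for being higher there. Their p-values and the order of the days give no support by themselves.

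These are the 250 bases before the start of Gm4340 (chr10:104193792-104194041, plus strand), Zscan4c (chr7:11005495-11005744, plus strand) and Zscan4f (chr7:11397665-11397914, plus strand), from RefSeq on GRCm38.p6, shown because they precede 3 of the genes with the largest rise. Capitals mark TATAAA, the TATA box core, searched on both strands.
Gm4340: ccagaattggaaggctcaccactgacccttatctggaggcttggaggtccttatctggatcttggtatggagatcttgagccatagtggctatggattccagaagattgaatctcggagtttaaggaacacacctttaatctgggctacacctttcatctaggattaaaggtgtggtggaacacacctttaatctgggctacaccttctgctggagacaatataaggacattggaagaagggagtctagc
Zscan4c: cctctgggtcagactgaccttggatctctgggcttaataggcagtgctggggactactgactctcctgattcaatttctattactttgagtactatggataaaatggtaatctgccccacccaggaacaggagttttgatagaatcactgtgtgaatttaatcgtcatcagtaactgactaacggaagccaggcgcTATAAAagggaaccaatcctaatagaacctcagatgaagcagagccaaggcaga
Zscan4f: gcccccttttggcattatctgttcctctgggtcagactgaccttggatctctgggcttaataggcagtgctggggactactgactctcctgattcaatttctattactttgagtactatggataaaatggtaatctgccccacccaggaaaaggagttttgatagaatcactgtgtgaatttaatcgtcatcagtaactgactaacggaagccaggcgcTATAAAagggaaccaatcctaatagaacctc
TATAAA was found before 3 of the 3 called two-cell-stage genes with a RefSeq promoter, before 5 of the 10 promoters of the whole list and before 13% of all 27025 promoters. The 3 are not separate cases, since those of Zscan4b and Zscan4f were 94.8% identical and the genes belong to 1 cluster. The array promoters held none, and their median of 1 CpG was below the median of 6 over all promoters.

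Of the 20 genes on the two-cell-stage list, 17 were in the table and 6 passed the filter, and 5 of those 6 were called higher. All 5 passed the filter only through the D12 libraries and were thus chosen for being higher there, so the count gives no support by itself. Summed over the 17 genes, the level was 1.51 and 3.36 FPKM at D10 and 34.95 and 32.41 FPKM at D12, most of it from those 5. The other 12 summed to 0.166 and 0.27 FPKM and then to 5.62 and 5.56 FPKM. Both D12 libraries were above both D10 libraries in 14 of the 17 and in 9 of those 12. The share over all tested genes was 21.9%, but only 6 of the 17 were tested, so it is not a background of like level. Any further Zscan4 copies among the 12 can share reads with the 5 left out. Of the 17, 9 were listed at 0 in both D10 libraries. Dux, the transcription factor that switches on two-cell-stage genes, was listed at 0 at D10 and was at 0.263 and 0.204 FPKM at D12. Usp17le, a deubiquitinase gene, was listed at 0 and then at 0.847 and 1.03 FPKM, and Tmem92 at 0 and then at 1.29 and 0.661 FPKM. These 3 were too low to be tested. Sp110 was the member tested but not called, with a difference of 0.07.

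The germline list followed. Its genes have promoters that DNA methylation silences in somatic cells. Of 23 genes, all in the table, 13 were tested, and 5 were called higher and 0 lower in limma. Of all tested genes, 1.25% were called higher. In the list 8 of the 13 had an unadjusted p under 0.05 in limma, and the median difference was 0.84. Of these 13, 4 passed the filter only through D12, among them Stra8 and Hormad1. Dazl, an RNA-binding protein of germ cells, was at 2.16 and 2.25 FPKM at D10 and at 17 and 9.22 FPKM at D12, a difference of 2.08 (SE 0.24, adjusted p = 1.05e-05). The lower D12 library was at the level of mES (9.08 FPKM). Tuba3a, a testis alpha-tubulin, was at 6.56 and 3.64 FPKM and then at 23 and 11.4 FPKM, a difference of 1.54 (adjusted p = 0.000233). Stra8, the retinoic acid-induced gene needed for entry into meiosis, rose by 1.40, from 1.01 and 0.526 FPKM to 3.93 and 3.32 FPKM. The synaptonemal complex genes Hormad1 and Sycp3 rose by 1.19 and 1.12. All 5 were below 3 FPKM at D8, when the single library held Dazl at 0.392 FPKM.

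Other members were not called. Ddx4, the germ cell RNA helicase, was at 0.405 and 0.39 FPKM and then at 2.05 and 1.51 FPKM, a difference of 0.99 that lay just under the 2-fold limit (adjusted p = 0.000339). The homeobox genes Rhox6 and Rhox9 were at high levels on both days, with differences of 0.25 and -0.00. Rhox6 was at 21.5 and 5.95 FPKM at D10 and at 19.5 and 9.71 FPKM at D12, so its days overlapped. Other genes with known germ cell roles rose by the same rule and were picked out after their values were seen. Sohlh2, a transcription factor of early germ cells, was at 2.67 and 2.39 FPKM and then at 11.7 and 7.77 FPKM (difference 1.58). Aurkc, the meiotic Aurora kinase, was at 2.56 and 1.35 FPKM and then at 12 and 5.91 FPKM (difference 1.71). Dmrt1, a transcription factor gene of the testis, rose by 1.08 and the Tudor protein gene Rnf17 by 1.16.

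These are the 250 bases before the start of Hormad1 (chr3:95559427-95559676, plus strand), Sycp3 (chr10:88459337-88459586, plus strand) and Dazl (chr17:50293621-50293870, minus strand), from the same source. They are shown because CACGTG, the palindromic E-box in capitals, was found before 9 of the 18 germline genes with a promoter, against 6.05% of all promoters.
Hormad1: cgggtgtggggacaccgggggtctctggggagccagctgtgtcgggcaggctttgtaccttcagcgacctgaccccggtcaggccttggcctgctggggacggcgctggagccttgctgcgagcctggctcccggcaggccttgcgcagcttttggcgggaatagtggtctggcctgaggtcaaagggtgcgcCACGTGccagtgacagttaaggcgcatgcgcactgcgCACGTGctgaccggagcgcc
Sycp3: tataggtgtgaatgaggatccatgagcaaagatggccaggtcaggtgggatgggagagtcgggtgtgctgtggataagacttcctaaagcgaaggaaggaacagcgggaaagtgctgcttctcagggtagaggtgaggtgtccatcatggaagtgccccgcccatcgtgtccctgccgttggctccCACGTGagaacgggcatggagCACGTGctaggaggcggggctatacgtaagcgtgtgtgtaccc
Dazl: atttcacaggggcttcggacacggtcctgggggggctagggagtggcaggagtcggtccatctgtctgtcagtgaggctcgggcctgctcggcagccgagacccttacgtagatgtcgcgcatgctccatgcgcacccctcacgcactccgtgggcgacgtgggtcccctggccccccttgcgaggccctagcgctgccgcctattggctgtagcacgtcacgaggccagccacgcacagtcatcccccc
Among the 5 called members the motif preceded 2, Hormad1 and Sycp3, with 2 copies each, and Dazl had none in this window. The germline promoters of the whole list were rich in CpG, with a median of 17.5, and the 5 called members had a median of 12. Among those 5, Dazl had 20, Tuba3a 8 and Stra8 5, against a median of 6 over all promoters.

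**Figure D2:**
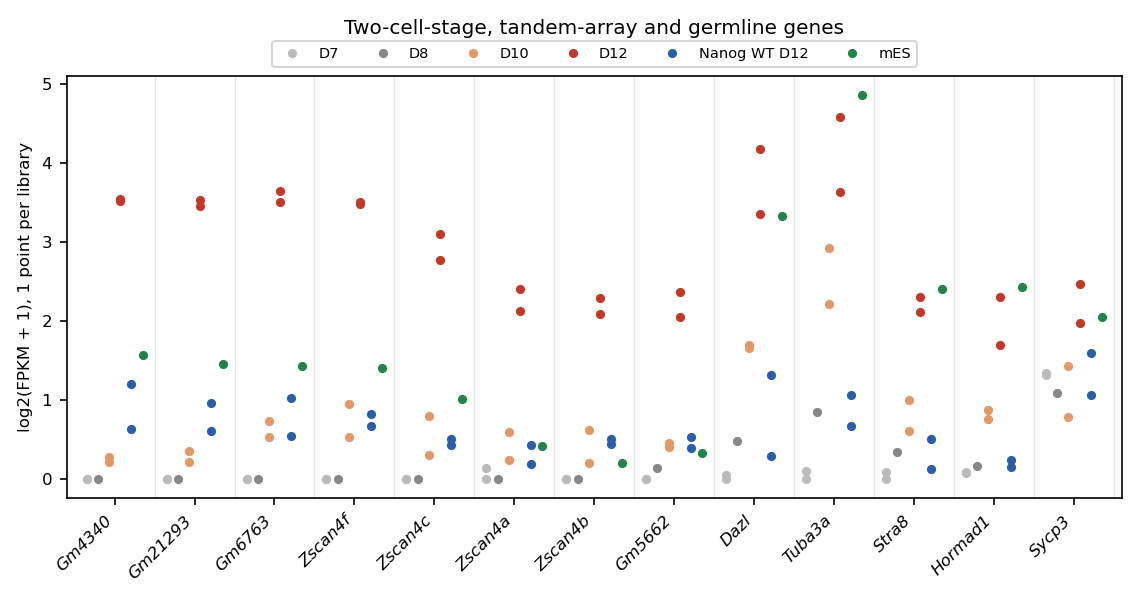
Log2(FPKM + 1) in each library (y axis) of 3 genes of the tandem array, 5 two-cell-stage genes and 5 germline genes (x axis). Points are single libraries of Nanog BiD at D7, D8, D10 and D12, of Nanog WT at D12 and of mES. The red D12 points stand above the orange D10 points in all 13 genes, and above the green mES point in the first 8.

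The pluripotency lists gave 1 call, where 1.25% of all tested genes were called higher. Of 21 genes tested on the list of naive transcription factors, 1 was called higher and 0 lower. In limma 8 had an unadjusted p under 0.05, and the median difference was 0.40. The call was Tcl1, a co-activator of Akt signalling and not itself a transcription factor. It was at 10.6 and 7.63 FPKM at D10 and at 26.8 and 17.2 FPKM at D12, a difference of 1.17 (SE 0.28, adjusted p = 0.0186). The mES library held 46.6 FPKM. Foxd3, a repressor needed to keep stem cells undifferentiated, was at 5.17 and 5.28 FPKM and then at 9.85 and 11 FPKM. Its difference of 0.88 had an adjusted p of 0.0145 but lay under the 2-fold limit. Esrrb, an orphan nuclear receptor of the naive network, was at 44.6 and 29.7 FPKM and then at 66.1 and 53.2 FPKM (difference 0.69, adjusted p = 0.271), with mES at 163 FPKM. Klf4 was at 15.9 and 13.7 FPKM and then at 16.7 and 21.7 FPKM, against 165 FPKM in mES. The number of the 21 within 2-fold of mES was 6 at D10 and 11 at D12.

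Nanog and Pou5f1, which the cells had received, and Ss18, which gave only its BiD to the fusion, did not pass the test. Nanog was at 200 and 128 FPKM at D10 and at 223 and 162 FPKM at D12 (difference 0.24, adjusted p = 0.767). Pou5f1 was at 667 and 434 FPKM and then at 613 and 414 FPKM (difference -0.09, adjusted p = 0.988), and Ss18 was at 51.9 and 45.7 FPKM and then at 54.3 and 44 FPKM (difference 0.01, adjusted p = 1). Each of these pairs of days overlapped. At D7 the mean of Pou5f1 had been 2243 FPKM and that of Nanog 718 FPKM.

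Among 25 effectors of pluripotency, such as surface, metabolic and small nuclear proteins of stem cells, 0 were called (limma; 7 had an unadjusted p under 0.05), with a median difference of 0.48 and 23 differences above 0. Dppa5a had the highest, at 706 and 361 FPKM and then 1536 and 729 FPKM (difference 1.07, SE 0.41, adjusted p = 0.218), with mES at 2396 FPKM. Dppa2 was at 11.3 and 8.34 FPKM and then at 26.3 and 14.2 FPKM (difference 0.93, adjusted p = 0.0851). The replicates differed on both days in the same way. Replicate 1 was above replicate 2 at D10 and at D12 in 22 of the 25 effectors and in 17 of the 21 genes on the naive list. It was below replicate 2 on both days in 13 of the 15 neural genes tested.

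A score placed each library between MEF (0) and mES (100) by the mean log2(FPKM + 1) of a set of 1190 genes that mES held 4-fold or more above MEF. It was 64.03 and 54.72 at D10 and 74.82 and 64.24 at D12, a mean difference of 10.2 points, which ranged from 4.87 without D12 replicate 1 to 15.4 without D12 replicate 2. The lower D12 library was level with the higher D10 library. D7 was at 32.33 and 31.42 and D8 at 50.29. The same score over 1067 genes that mES held 4-fold or more below MEF was 52.97 and 52.12 at D10 and 58.3 and 52.6 at D12, so those days overlapped. With 2 libraries against 2, an exact permutation test cannot go below p = 0.333, and no test was run on the scores.

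Of the 210 genes called higher, 65 (31%) belonged to that first set of mES genes, which held 6.57% of all tested genes. Another 94 (44.8%) were under 1 FPKM in both MEF and mES, against 14.9% of all tested genes. Of the 210, 58 passed the filter only through the D12 libraries and were thus chosen for being higher there. The shares of the 210 given here include those genes and give no support by themselves. At D12, 161 of the 210 (76.7%) were above the mES library, against 57.4% of all tested genes, and 109 had been above it at D10. The share was alike in the 22 genes called lower, of which 17 (77.3%) were above mES at D12. The other 51 of the 210, among them Gm4340, Zscan4f, Zscan4c and Mab21l2, were neither in the set of mES genes nor low in both references. The genes called higher were thus a mixture of mES genes, genes low in both references and others.

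Several of the highest named differences were of genes known from neurons or glia. Mab21l2, a gene of eye and brain development, was at 1.79 and 6.01 FPKM at D10 and at 17.6 and 23.8 FPKM at D12, a difference of 2.28 (SE 0.42, adjusted p = 0.00202). It was not new to the culture, since it belonged to the genes that mES held 4-fold or more below MEF. It was above 0 in all other time-course libraries, with a mean of 1.35 FPKM at D7. Gfap, the intermediate filament of astrocytes, was at 2.56 and 0.847 FPKM and then at 8.59 and 13.4 FPKM (difference 2.2, adjusted p = 0.00149). Slc32a1, which loads GABA into synaptic vesicles, was at 1.15 and 1.57 FPKM and then at 8.39 and 6.18 FPKM (difference 1.80, adjusted p = 1.43e-06). The days did not overlap in any of the 3, and mES held none of them above 0.15 FPKM. Zcchc12, Tmem130 and Ntm, a cell adhesion gene of neurons, rose by 1.77, 1.77 and 1.76. Gad1, which makes GABA, was picked after its values were seen, at 1.2 and 1.25 FPKM and then 4.18 and 4.3 FPKM (difference 1.24), and so was Snap25, of the vesicle fusion machinery (difference 1.05).

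The list of 16 neural genes as a whole gave 1 call in 15 tested, with a median of 0.05. Dcx, which binds microtubules in migrating neurons, was at 11.9 and 23.8 FPKM at D10 and at 33.4 and 53.2 FPKM at D12 (difference 1.27, SE 0.28, adjusted p = 0.0102). The neuronal tubulin Tubb3 was at 191 and 308 FPKM and then at 322 and 448 FPKM (difference 0.64, adjusted p = 0.622). Of the 15 tested, 9 had differences above 0, and some genes of neural precursors had differences below 0. Sox1 was at 30.3 and 39.3 FPKM and then at 12.5 and 24.8 FPKM (difference -0.93, adjusted p = 0.21), and Olig3 was at 11.5 and 16.9 FPKM and then at 8.07 and 7.76 FPKM (difference -0.75, adjusted p = 0.217). Neurog1, a proneural factor picked after its values were seen, was called lower, at 14.6 and 21.8 FPKM and then at 7.24 and 9.55 FPKM (difference -1.02, adjusted p = 0.0235). The list's summed level was 461 and 743 FPKM at D10, 604 and 891 FPKM at D12 and 79.8 FPKM in mES.

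Calls in the other lists were few. Ldhb, the lactate dehydrogenase subunit B, was the 1 call among 24 glycolysis genes, at 61.3 and 51 FPKM and then at 130 and 100 FPKM (difference 1.02, adjusted p = 0.00267), while the list's median was -0.11. Pecam1, an adhesion protein of endothelium that mouse stem cells also carry, was the 1 call among 6 tested endothelial markers. It was at 12.1 and 5.95 FPKM and then at 25.6 and 13.7 FPKM, with mES at 47.4 FPKM (difference 1.05, adjusted p = 0.0412). Without D10 replicate 2 the difference was 0.59 (adjusted p = 0.546), and without D12 replicate 1 it was 0.63 (adjusted p = 0.50). Emcn was listed at 0 in all 4 libraries. Cox7a1, a subunit of cytochrome oxidase, was among the 12 highest named differences (1.86, adjusted p = 0.0407). It was at 3.13 FPKM and 0 at D10 and at 9.99 and 3.95 FPKM at D12, and the D12 replicate 2 library was little above D10 replicate 1. Its difference was 0.84 (adjusted p = 0.634) without D10 replicate 2 and 1.28 (adjusted p = 0.429) without D12 replicate 1.

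The other lists of cell types showed no call. The 14 macrophage markers summed to 4.86 to 9.31 FPKM at D10 and 6.42 to 8.97 FPKM at D12, with Tyrobp listed at 0 in all 4 libraries. The primitive endoderm genes summed to 83.6 to 99.1 FPKM and then to 86.8 to 87.6 FPKM, with Afp and Ttr at 0. The trophoblast genes summed to 32.4 to 56.6 FPKM and then to 36.2 to 60.4 FPKM, with Prl3d1 at 0, and the muscle and adipose markers to 11.1 to 12.2 FPKM and then to 9.3 to 10.5 FPKM, with Adipoq and Plin1 at 0. In all, 21 of the 30 lists held no called gene.

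**Figure D3:**
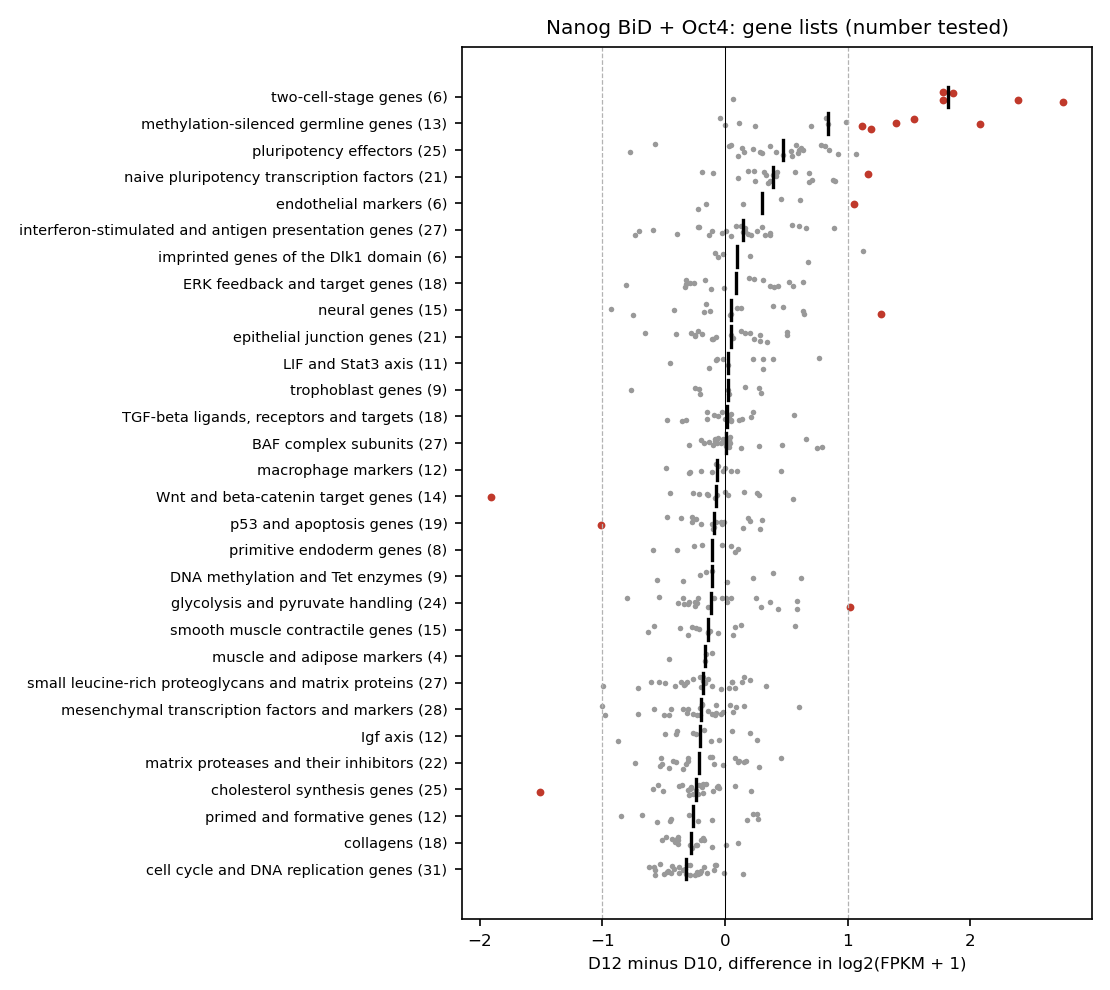
D12 minus D10 in log2(FPKM + 1) (x axis) for the tested members of 30 gene lists (y axis, number tested in brackets), ordered by median. Red points are called genes, grey points are not called, the black bars are medians and the dashed lines mark the 2-fold limit. The two-cell-stage and germline lists have the highest medians, 1.82 and 0.84, though 5 of 6 and 4 of 13 tested members passed the filter only through D12, and the cell cycle list the lowest, -0.32.

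The 22 genes called lower included signals and patterning genes that the culture had switched on shortly before. Wnt8a, a secreted Wnt ligand of the early embryo, had the largest drop, from 14.5 and 10.6 FPKM at D10 to 1.8 and 3.53 FPKM at D12 (difference -1.91, SE 0.29, adjusted p = 0.000275). It had been at 29.3 and 24.9 FPKM at D7 and at 59.9 FPKM in the D8 library. Wnt8a was the 1 call among 14 tested Wnt and beta-catenin target genes, whose median was -0.07. Hoxb1, the hindbrain homeobox gene, was at 14.5 and 14.1 FPKM at D7, at 4.83 and 9.96 FPKM at D10 and at 2.82 and 2.58 FPKM at D12 (difference -1.11, adjusted p = 0.0077). Meox1, a homeobox gene of somites picked after its values were seen, was at 12.7 and 17.5 FPKM at D7, at 1.25 and 1.78 FPKM at D10 and at 0.069 and 0.281 FPKM at D12 (difference -1.1).

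Other genes called lower had a range of courses. Hmga2, a chromatin protein of embryonic cells and a target of let-7, was at 145 and 191 FPKM in the 2 MEF libraries, at 25.7 and 40 FPKM at D10 and at 8.04 and 13.2 FPKM at D12 (difference -1.54, SE 0.30, adjusted p = 0.00333). The mES library held 23.2 FPKM, above both D12 libraries. Mest, an imprinted gene of mesoderm, was at 107 and 105 FPKM and then at 40.2 and 49.9 FPKM (difference -1.23, adjusted p = 0.000923). Fgfbp3, which releases Fgf from the matrix, was at 46.4 and 60.8 FPKM and then at 13.5 and 20.1 FPKM (difference -1.63, adjusted p = 0.00313). Slc39a8, a zinc importer, Adm, the vasodilator adrenomedullin, Fignl2 and Prtg, an adhesion protein of the early neural tube, fell by 1.24, 1.15, 1.15 and 1.1. Sprr2a1 and Sprr2a2, near-identical genes of the cornified envelope, fell by 1.16 and 1.15, and their reads may be shared. Pmaip1, the p53 target that encodes Noxa, was at 28.7 and 17.5 FPKM and then at 10.9 and 10.4 FPKM (difference -1.01, adjusted p = 0.0189), the 1 call among 19 p53 and apoptosis genes.

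**Figure D4:**
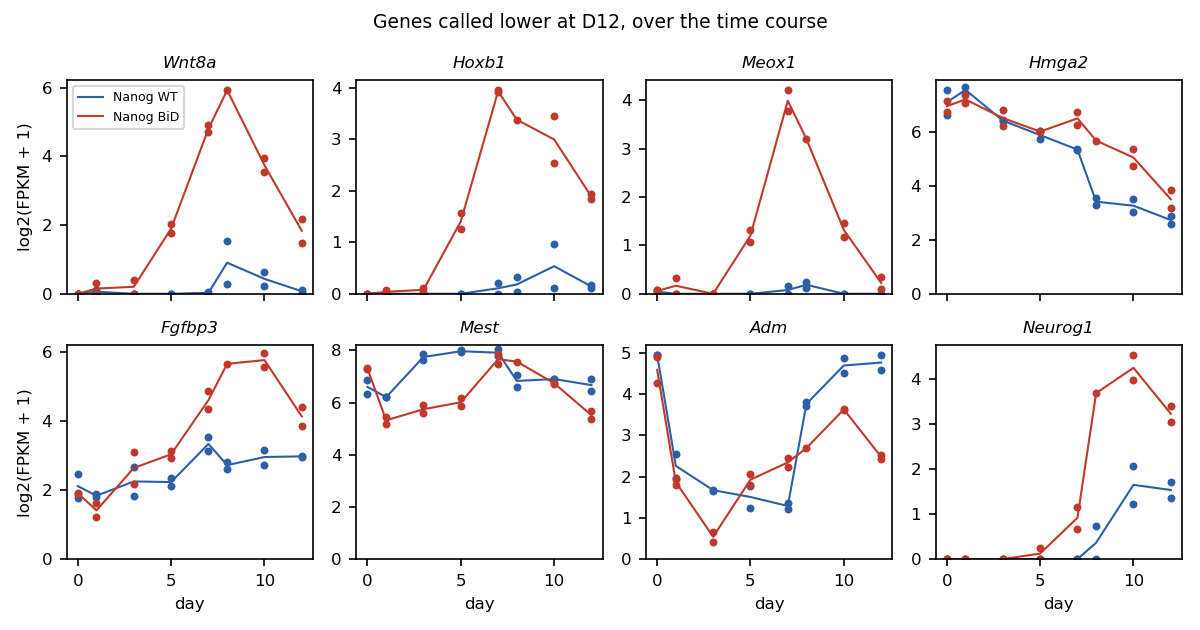
Log2(FPKM + 1) (y axis) of 8 genes called lower at D12 against the day (x axis), for Nanog BiD (red) and Nanog WT (blue). Points are libraries and lines join their means, with a single Nanog BiD library at D8. Wnt8a, Hoxb1 and Meox1 climbed after D3 with Nanog BiD and were falling by D10, and with Nanog WT they stayed below 2 FPKM.

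Several broader lists held no called gene. Among 31 cell cycle and replication genes 0 were called (5 at an unadjusted p under 0.05), with a median of -0.32 and 30 differences below 0. Both D12 libraries were below both D10 libraries in 19 of them, an order that 18.1% of all tested genes showed. Rrm2, a subunit of ribonucleotide reductase, was at 148 and 147 FPKM and then at 97.3 and 100 FPKM (difference -0.58, adjusted p = 0.174). Of 18 collagens 0 were called (3 at an unadjusted p under 0.05), with a median of -0.27. Col1a2 was at 109 and 92 FPKM and then at 57.5 and 88.8 FPKM, against 1726 FPKM in MEF and 0.145 FPKM in mES. Postn, the matrix protein periostin, was at 117 and 82.8 FPKM and then at 48.3 and 49.4 FPKM. Its difference of -0.997 had an adjusted p of 0.00856 and lay a fraction under the limit. Grb10, an imprinted adaptor of the insulin and Igf receptors, was at 174 and 208 FPKM and then at 87 and 123 FPKM (difference -0.87, adjusted p = 0.00204). Of 28 mesenchymal genes 0 were called (5 at an unadjusted p under 0.05), with a median of -0.20. S100a4 was at 0.967 and 0.972 FPKM and was then listed at 0.

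In the list of 25 cholesterol synthesis genes, both D12 libraries were below both D10 libraries in 17, against 18.1% of all tested genes. The median difference was -0.23.

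The lists of ERK targets, the LIF and Stat3 axis, BAF subunits and DNA methylation genes gave no call. Of 18 ERK feedback and target genes, 3 had an unadjusted p under 0.05, and the median was 0.09. Of 11 genes of the LIF and Stat3 axis, 1 did, the kinase gene Pim1, at 42.7 and 34.1 FPKM and then at 70.7 and 61.2 FPKM (difference 0.77, adjusted p = 0.14). Of 27 subunits of the BAF complex, 4 did, and the median was 0.01. Dpf3, a subunit of muscle and neurons, was at 0.571 and 0.79 FPKM and then at 1.27 and 2.72 FPKM, a difference of 0.79 that lay under the 2-fold limit (adjusted p = 0.0035). Of 9 DNA methylation and Tet genes, 1 did. Dnmt3l, the cofactor of de novo methylation, was at 8.23 and 3.47 FPKM and then at 18.5 and 4 FPKM, with overlapping days.

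Over the same 2 days with Nanog WT, 265 genes (1.57%) were called, 259 higher (1.54%) and 6 lower (0.0356%). The count was 147 without D10 replicate 1 and 423 without D10 replicate 2, and the shares that follow rest on it. Of the 210 genes called higher with Nanog BiD, 56 (26.7%) were also called higher with Nanog WT, which is 21.6% of the Nanog WT list, and their median change there was 0.55 over all 210, against -0.01 over all tested genes. Slc32a1 rose by 1.68, Zcchc12 by 1.79 and Tmem130 by 2.26 with Nanog WT. Tmem130 was at 0.122 and 0.183 FPKM at D10 and at 4.1 and 4.98 FPKM at D12 there. The activation score of Nanog WT was 14.76 and 20.76 at D10 and 22.71 and 28.48 at D12.

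The difference between the changes, Nanog BiD minus Nanog WT, was called for 84 genes (0.499%), 59 above 0 (0.35%) and 25 below (0.148%). With quantile normalization the split was 37 above and 26 below, and with rescaling to a common total 38 and 10. Of the 59, 39 passed the filter only through the Nanog BiD D12 libraries, and the other 20 were 0.121% of the genes that passed without them. Leaving out 1 library moved the count of 84 to 54 without Nanog WT D10 replicate 1, 147 without Nanog BiD D10 replicate 1, 170 without Nanog BiD D12 replicate 2 and 263 without Nanog WT D10 replicate 2. That last setting turned the split to 84 above and 179 below. With a pseudocount of 0.1 in place of 1, 11 differences were called, 5 above and 6 below.

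The 5 two-cell-stage genes remained called from D10 to D12 with Nanog BiD at that pseudocount, but not in the difference between the changes. Zscan4f with Nanog WT was listed at 0 at D10 and was at 0.594 and 0.775 FPKM at D12, in libraries deeper than those of Nanog BiD. The difference between the changes was 2.01 (adjusted p = 2.22e-05) on log2(FPKM + 1) and 0.84 (adjusted p = 0.886) on log2(FPKM + 0.1). The D12 level itself was over 10 FPKM in both Nanog BiD libraries and under 1 FPKM in both Nanog WT libraries. Zscan4c, Zscan4a, Stra8 and Hormad1 had differences of 1.92, 1.55, 1.14 and 1.00. With a pseudocount of 0.1 these were 1.39, 1.54, 0.94 and 0.67 and were not called (adjusted p between 0.571 and 0.83). Col9a2, a cartilage collagen that the mES library held at 7.47 FPKM, was at 1.45 and 0.765 FPKM and then at 7.38 and 4.16 FPKM with Nanog BiD. With Nanog WT it was at 1.29 and 1.54 FPKM and then at 1.32 and 1.23 FPKM, and the difference between the changes was 1.74 (adjusted p = 0.00248), or 2.42 with a pseudocount of 0.1, where it was not called (adjusted p = 0.501). AA623943 was listed at 0 in both Nanog BiD libraries of D10 and was at 2.44 and 2.36 FPKM at D12 (difference between the changes 1.61). Its difference was also called with a pseudocount of 0.1 (3.58, adjusted p = 0.0165). AA623943 passed the filter only through those D12 libraries, as did Stra8, Hormad1 and the Zscan4 genes named here. They were thus chosen for being higher there.

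The lowest differences were of genes that climbed with Nanog WT from a lower start. Sst, the neuropeptide somatostatin, was at 2.67 and 2.81 FPKM at D10 and at 30.9 and 35 FPKM at D12 with Nanog WT. With Nanog BiD it was at 12.1 and 18.9 FPKM and then at 23.3 and 19.4 FPKM, so the difference between the changes was -2.72 (SE 0.46, adjusted p = 0.00461). Cdk5r2, Crmp1, Scrt2 and Dpysl5, genes of neuronal migration and axon growth, had differences of -2.05, -2.01, -1.95 and -1.94. None of these 5 differences was called with a pseudocount of 0.1, where they lay between -3.05 and -2.18 (adjusted p between 0.131 and 0.568). The calls of Cdk5r2, Crmp1, Scrt2 and Dpysl5 were also lost without Nanog BiD D10 replicate 2, Nanog BiD D12 replicate 1, Nanog WT D10 replicate 1 or Nanog WT D12 replicate 1, and without Nanog WT D10 replicate 1 the differences were -1.55, -1.34, -1.23 and -1.21. Scrt2 was already at 31.4 and 42.1 FPKM at D10 with Nanog BiD, above the 29.8 and 19 FPKM that Nanog WT reached at D12. In the cholesterol list 6 of 25 differences were called below 0, against 0.148% of all tested genes. Hmgcs1 was at 40.6 and 58.6 FPKM and then at 116 and 84.4 FPKM with Nanog WT, and at 216 and 248 FPKM and then at 182 and 200 FPKM with Nanog BiD (difference between the changes -1.28, adjusted p = 0.00653).

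**Figure D5:**
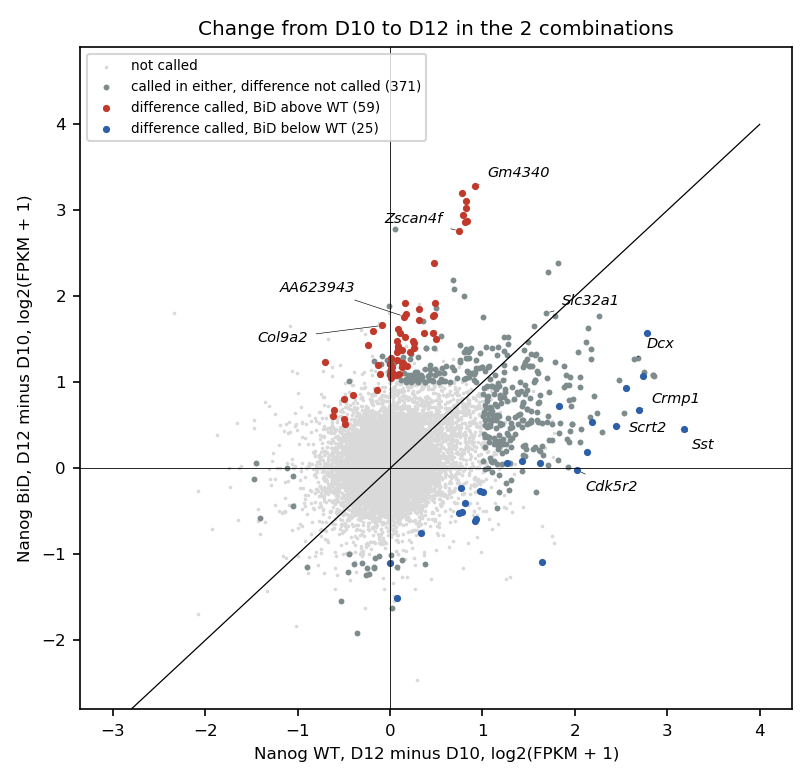
D12 minus D10 in log2(FPKM + 1) with Nanog WT (x axis) and with Nanog BiD (y axis), 1 point per tested gene. Red points are the 59 genes and blue points the 25 genes whose difference between the changes was called, dark grey points the genes called in at least 1 combination but not in the difference, and the line marks equal change. The red points lie between -1 and 1 on the x axis, and Slc32a1 lies near the line.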

How the data were processed

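RNA was sequenced from whole cultures. The authors' pipeline was Trim Galore 0.6.4 for trimming, HISAT2 2.2.1 for alignment to mm10 and StringTie 2.2.1 for expression. Gene-level FPKM were deposited, with replicates kept apart; the annotation and any use of strand are not given in the sources used here, so overlapping and near-identical genes are uncertain. Authors' GFOLD comparisons need reads and were not used.

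Groups came from the sample labels. Genes at 1 FPKM or more in at least 2 of 31 time-course libraries (16842 of 37108) were tested on log2(FPKM + 1) with limma 3.58.1 in R 4.3.3 (lmFit, contrasts.fit, eBayes with trend, two-sided, 16 groups, no covariate). Contrasts were D12 against D10 in each combination and their difference. On simulated data for D12 against D10 with Nanog BiD, 91 of 100 genes changed by 1.5 and 100 of 100 changed by 2.5 (log2) were recovered, with 3 others called. The changed genes had a mean log2(FPKM + 1) above 1, and the simulated noise was independent between libraries. The simulation thus does not show recovery for lower genes. Depth was estimated as the commonest ratio of low values between libraries. Figures and sequence counts used Python 3.11.15.

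Named genes were the 12 highest and 12 lowest called genes with symbols, the called members of 30 lists (the 3 largest differences where none was called), Nanog, Pou5f1 and Ss18, and the 5 highest and lowest differences between combinations. Some genes that this rule names are not reported here. The comparison and lists were chosen with earlier results of these data known. Alternatives covered the pseudocount, filter, scaling, fold limit, groups fitted, replicate block and left-out libraries, and, chosen after seeing the data, identical rows collapsed (179 tested rows repeated another) and protein-coding genes only.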

Additional observations from a re-analysis of the deposited data

Results flagged for a closer look

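The change from D10 to D12 differed between Nanog BiD and Nanog WT for 84 genes by limma's test of the difference itself. Among the named genes the difference, Nanog BiD minus Nanog WT in log2(FPKM + 1), was 2.01 for Zscan4f, 1.92 for Zscan4c, 1.55 for Zscan4a, 1.30 for Zscan4b and 1.32 for Gm5662, all two-cell-stage genes that passed the filter only through the Nanog BiD D12 libraries. It was 1.14 for Stra8, 1.00 for Hormad1 and 1.61 for AA623943, which also passed only through those libraries, and 1.74 for Col9a2. Below 0 it was -1.94 for Dpysl5, -1.95 for Scrt2, -2.01 for Crmp1, -2.05 for Cdk5r2 and -2.72 for Sst. Groups of 2 libraries are too small for a test of single outlying libraries.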

How the results depend on the processing

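Depth is known only as ratios, and 2 libraries a group limit every value. For D12 against D10 with Nanog BiD (232 calls), a pseudocount of 0.1 gave 129 calls, no fold limit 622, a mean of at least 5 FPKM 78 and the compared groups alone 0 (1654 at an unadjusted p under 0.05). Leaving out 1 library gave 222 to 320. For Nanog WT (265 calls), no fold limit gave 514, a mean of at least 5 FPKM 90, the compared groups alone 0 (1573 at an unadjusted p under 0.05), and leaving out 1 library 147 (without D10 replicate 1) to 423 (without D10 replicate 2). For the difference between the changes (84 calls), a pseudocount of 0.1 gave 11, rescaling to a common total 48, the compared groups alone 5, a mean of at least 5 FPKM 7, all below 0, and leaving out 1 library 54 to 263. The step from D3 to D5 gave 366 calls after rescaling. The cause of these moves was not tested, beyond fewer genes or samples entering. Without 1 library, the activation score difference of 10.2 ranged from 4.87 to 15.4 and the silencing score difference of 2.90 from 0.0527 to 5.76.

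Replicate numbers match between the days, but the labels do not say that a number marks a shared culture. Deviations of same-numbered libraries correlated at 0.389 with Nanog BiD and 0.104 with Nanog WT, across genes. With a replicate block, 242, 277 and 92 genes were called in the 3 comparisons.

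Over the named genes, 1591 of 1807 values under alternatives kept their direction and their side of the threshold, 174 lost the call, 24 gained it and 18 changed sign, none of them in a called gene. With Nanog BiD, calls were lost without D10 replicate 1 (Mab21l2, Slc39a8, Prtg, Sycp3, Dcx and Pmaip1), D10 replicate 2 (Cox7a1, Fgfbp3, Hmga2, Fignl2, Hoxb1, Prtg, Tcl1, Ldhb and Pecam1), D12 replicate 1 (Cox7a1, Fgfbp3, Hmga2, Fignl2, Prtg, Tcl1, Hormad1, Sycp3, Ldhb, Pecam1 and Pmaip1) and D12 replicate 2 (Slc39a8, Sprr2a1, Sprr2a2, Hoxb1, Prtg, Dcx and Pmaip1). After rescaling to a common total, Ss18 was -0.0035. Leaving out 1 library, the log2 difference of Nanog ranged from -0.073 to 0.56, Pou5f1 from -0.40 to 0.21, Ss18 from -0.14 to 0.15, Cdk5r2 from -0.15 to 0.10, Dpysl5 from -0.13 to 0.52, Dnmt3l from -0.36 to 1.6, Krt8 from -1.49 to 0.18, Dlk1 from -0.080 to 0.48, Tead4 from -0.067 to 0.65, Tfap2c from -0.019 to 0.57 and Fabp4 from -0.54 to 0.22.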

Other observations

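The imprinted transcripts of the Dlk1 domain, had differences of opposite sign in the 2 combinations for Meg3 and were not called. Meg3, a long non-coding RNA expressed from the maternal copy, was at 5.77 and 7.46 FPKM at D10 and at 14.6 and 16.5 FPKM at D12 with Nanog BiD (difference 1.13, adjusted p = 0.119 in limma). With Nanog WT it was at 40.7 and 17.3 FPKM and then at 15.2 and 16.1 FPKM, and the difference between the changes was 1.86 (adjusted p = 0.137). Rian, from the same domain, was at 21.1 and 18.6 FPKM and then at 29.5 and 35.5 FPKM with Nanog BiD (difference 0.68, adjusted p = 0.439). The mES library held Meg3 at 5.56 FPKM and Rian at 26.3 FPKM. B2m, the light chain of MHC class I, was at 130 and 128 FPKM and then at 75 and 80 FPKM with Nanog BiD, a difference of -0.73 (adjusted p = 0.0472) under the 2-fold limit, and the mES library held 25.7 FPKM. Dppa3, a maternal factor of the early embryo, was above the mES level of 22.9 FPKM in all 4 Nanog BiD libraries, at 88.3 and 56.4 FPKM and then at 131 and 74 FPKM.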
